A study of Mus musculus with 24 samples.

Results

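The 49 genes described here encode chromatin remodellers and modifiers other than Chd4, and they were followed in mouse muscle stem cells that had lost Chd4. They were chosen by name from a list of Polycomb, DNA methylation, SWI/SNF, ISWI, histone deacetylase (HDAC) and related genes, and each matched exactly 1 of the 46078 genes in each expression table. By role they comprise 7 genes of Polycomb repressive complex PRC2, 7 of PRC1, 7 of DNA methylation, 2 ISWI ATPases, 12 SWI/SNF subunits, 9 histone deacetylases and a group of 5 made of corepressor subunits and Ino80. RNA-seq was available for 16 libraries in 4 groups of 4, all from C57BL/6 mice aged 2 to 4 months. In vivo, satellite cells, the resident stem cells of muscle, were sorted from Chd4dPax7ER and Chd4fl/fl mice 3 days after the muscle was injured with cardiotoxin. The sort kept cells without SCA1 and CD45 that carried α7-integrin and CD34. In vitro, primary myoblasts grown from satellite cells of uninjured muscle, all Chd4fl/fl, were kept proliferating and were taken 72 h after an adenovirus encoding CRE (AdCRE) or GFP (AdGFP).

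The AdCRE cultures alone received Cre, so effects of Cre and of Chd4 loss cannot be told apart in the cultures, and all of those libraries were exposed to adenovirus. Of the sorted cells, the Chd4dPax7ER label alone names Pax7ER, the satellite cell driver. The labels mention neither that driver for the Chd4fl/fl mice nor an inducing agent for either genotype. Chd4 mRNA was 44.9% of Chd4fl/fl in Chd4dPax7ER cells and 27.7% of AdGFP in AdCRE cultures, with no overlap between groups (exact permutation test, two-sided, p = 0.0286 in each setting, the smallest possible). All 9 satellite cell markers examined, such as Pax7 and Itga7, were present in both settings, but in the sorted cells 4 of them rose and 1 fell, and their sum was 1111 to 1338 RPKM in Chd4dPax7ER against 687 to 865 RPKM in Chd4fl/fl. Each library summed to 286802 to 326812 RPKM. Markers of mature myofibres differed in the sorted cells, where the sum of 12 such genes was 1129 to 2540 RPKM in Chd4dPax7ER against 227 to 470 RPKM in Chd4fl/fl, and all 10 that were tested rose. In the cultures their sums overlapped, at 665 to 2980 RPKM in AdCRE against 495 to 2442 RPKM in AdGFP. There none of the 11 tested was called in limma, and 8 rose under the replicate block, as did 17.5% of all genes. Of 13 leukocyte markers 10 were tested in the sorted cells, and none was called or at an unadjusted p under 0.05 in limma. Under the replicate block 1 was higher, and leukocyte sums were 103 to 216 RPKM in Chd4dPax7ER against 81.5 to 162 RPKM in Chd4fl/fl. Fibroblast marker sums were 209 to 351 RPKM in Chd4dPax7ER against 83.2 to 109 RPKM in Chd4fl/fl, and 3 of 6 tested rose. Pericyte marker sums were 12.7 to 38.1 RPKM in Chd4dPax7ER against 4.47 to 9.36 RPKM in Chd4fl/fl (3 of 4 tested rose), endothelial sums were 7.74 to 14.2 RPKM in Chd4dPax7ER against 3.62 to 6.85 RPKM in Chd4fl/fl (1 of 2 rose), and of the other lists 3 of 5 Schwann cell markers and the 1 erythroid marker tested rose. In the cultures pericyte sums were 183 to 407 RPKM in AdCRE against 52.5 to 107 RPKM in AdGFP. Rgs5, the 1 of 3 pericyte markers tested that rose, made up most of those sums, averaging 273 RPKM in AdCRE and 65.6 RPKM in AdGFP. Of the fibroblast markers there 1 of 2 tested rose, while fibroblast sums were 44.6 to 94.5 RPKM in AdCRE against 44.4 to 95.0 RPKM in AdGFP. The part of these other cells in the results below was not tested, and in bulk RNA fewer cells of a type and less RNA per cell cannot be told apart. No label ties a replicate to its own animal or culture, and the p-values therefore cover the spread among these libraries alone, which may be technical.

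Chromatin is kept silent or open by complexes that act in different ways. PRC2 methylates histone H3 to mark genes for silencing, and PRC1 reads that mark and ubiquitinates histone H2A. DNA methyltransferases write and copy methylation of cytosine, and TET enzymes oxidise it as a step towards its removal. SWI/SNF, ISWI and INO80 complexes use ATP to slide, space or exchange nucleosomes, while histone deacetylases and corepressors remove acetyl groups and so favour silence. In muscle, Ezh2 is known to hold back muscle genes in dividing myoblasts, SWI/SNF with its subunit Smarcd3 is known to open them with MyoD, and class II histone deacetylases are known to restrain MEF2 factors.

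In the sorted cells, more of these genes were lower than higher after loss of Chd4. Of the 47 that were tested, 18 fell, 2 rose and 27 were not called by limma on log2(RPKM + 0.5), at a Benjamini-Hochberg adjusted p under 0.05 over all genes tested. A gene was tested if at least 4 of the 8 libraries of its setting reached 0.5 RPKM. Over all 13344 genes tested in vivo, 11.9% fell and 14.7% rose, or 26.6% together; with TPM scaling 2001 fell and 1720 rose, and with quantile normalization 1949 fell and 1751 rose, against 1588 and 1960 as deposited. The median log2 fold change of the chromatin genes was -0.30, against -0.02 over all genes tested, and the Chd4dPax7ER and Chd4fl/fl libraries did not overlap for 26 of the 47, or 55.3%, against 30.3% of all genes tested. The falls were modest in size: the 18 genes lay between -0.29 and -0.87 on the log2 scale. Smarca1 had by far the widest change in the other direction, at 1.49, and it passed the filter through its Chd4dPax7ER libraries, where it was higher. Leaving out each library in turn left 12 to 18 genes lower and 1 or 2 higher, with 12 lower without Chd4fl/fl replicate 1 and also without Chd4fl/fl replicate 2. With a block for the replicate number, which did not pair the sorted-cell libraries, 11 fell and 1 rose, against 8.87% and 12.7% of all genes.

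The cultures gave a different count. None of the 47 genes tested was called between AdCRE and AdGFP by limma, with 6 at an unadjusted p under 0.05. Over all 13567 genes tested, 0.516% rose and 0.140% fell, or 0.656% together, and 15.6% were at an unadjusted p under 0.05. Same-numbered AdCRE and AdGFP libraries deviated together, so the replicate number was also fitted as a block. With the block, 11 of the 47 fell and none rose, against 18.7% of all genes falling and 17.5% rising, or 36.2% together. The 11 were Ezh2, Bmi1, Dnmt1, Uhrf1, Smarca5, Smarca4, Arid1a, Arid1b, Arid2, Hdac7 and Hdac10, and each was lower in AdCRE in 4 of 4 pairs. The groups did not overlap for 4 of the 47 genes, or 8.51%, against 10.0% of all genes tested, and these 4, Ezh2, Smarca5, Hdac10 and Ino80, were all lower in AdCRE, as were 6.21% of all genes. The median log2 fold change was -0.06, against -0.01 over all genes tested.

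**Figure D1:**
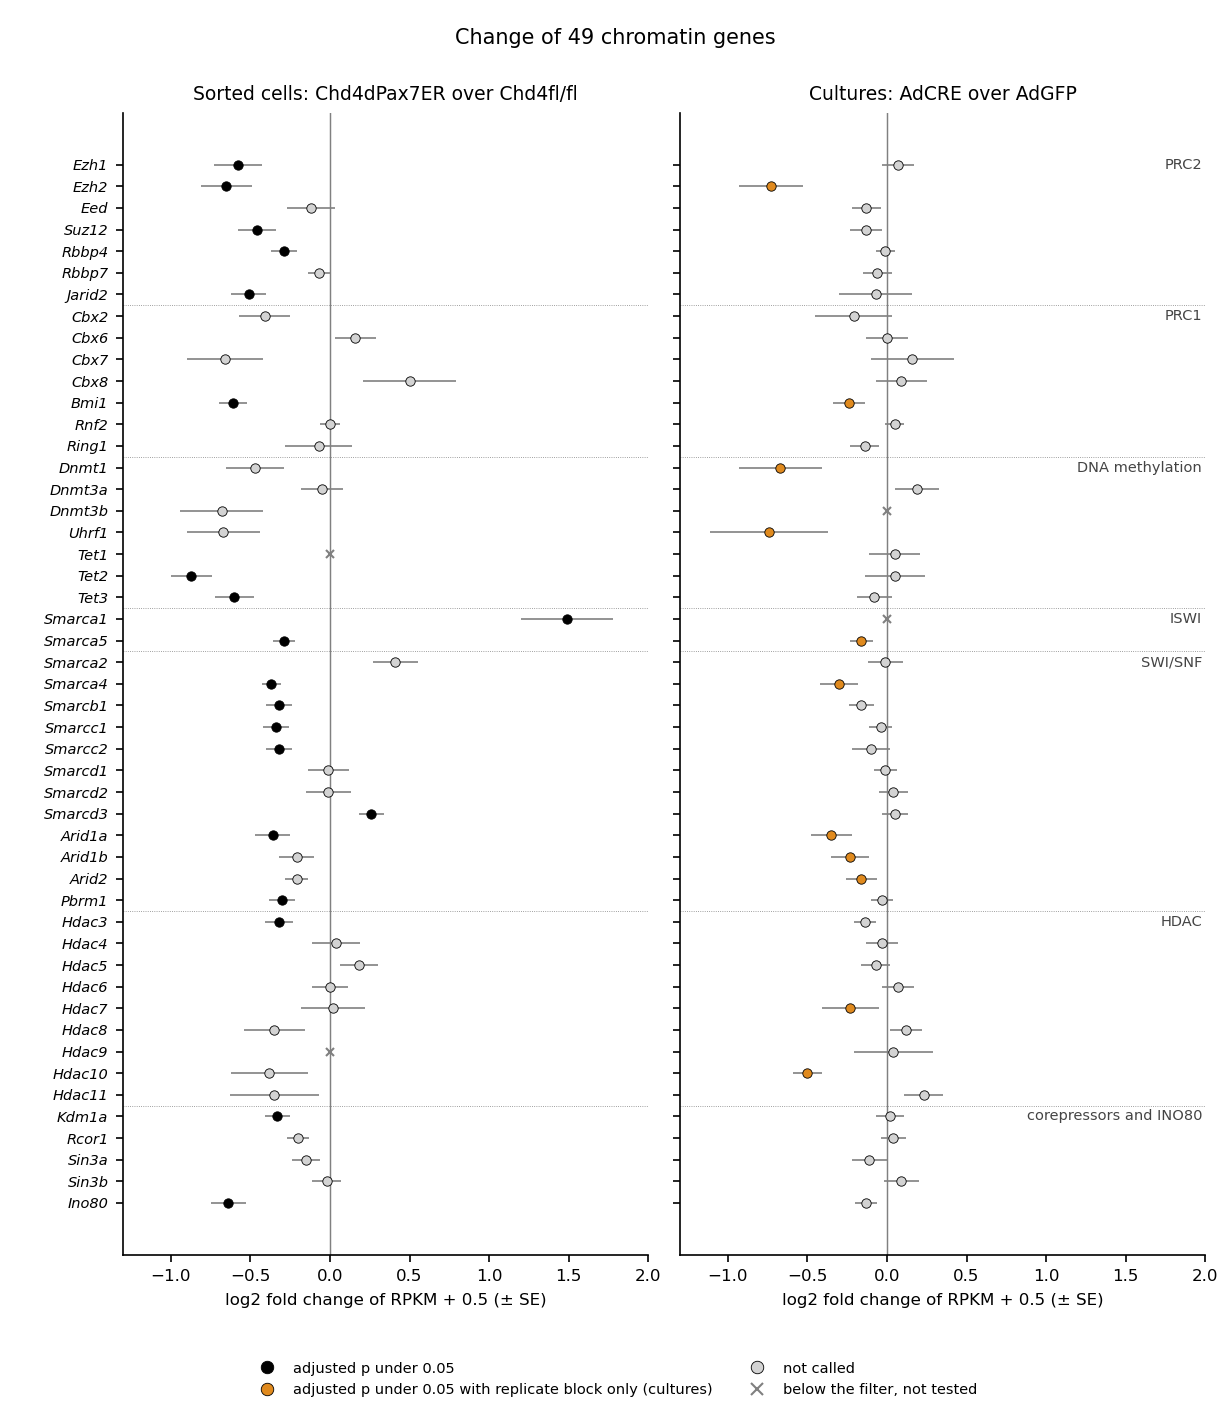
Log2 fold change of RPKM + 0.5 (points) with its SE (bars) for the 49 genes, in sorted cells (left, Chd4dPax7ER over Chd4fl/fl) and cultures (right, AdCRE over AdGFP), with dotted lines between role groups. Black points passed an adjusted p of 0.05, orange points passed it in the cultures with the replicate block, and crosses mark genes below the expression filter: 20 points are black on the left and none on the right, where 11 are orange.

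Of the 7 PRC2 genes, 5 fell (71.4%) and none rose in the sorted cells, against 11.9% falling and 14.7% rising over all genes tested. Ezh2, its main methyltransferase in dividing cells, had 18.6, 12.2, 16.4 and 17.7 RPKM in the 4 Chd4dPax7ER libraries, against 31.6, 25.1, 25.1 and 20.8 RPKM in the 4 Chd4fl/fl libraries. Every Chd4dPax7ER library lay under every Chd4fl/fl library, and Ezh2 averaged 16.2 ± 2.85 RPKM in Chd4dPax7ER and 25.7 ± 4.43 RPKM in Chd4fl/fl (SD, n = 4 each). The log2 fold change was -0.65 (SE 0.16, limma adjusted p = 0.0149). Ezh1, the paralogue known to take over in resting cells, had 5.90, 5.50, 4.44 and 3.93 RPKM in Chd4dPax7ER, against 6.34, 7.89, 7.75 and 8.34 RPKM in Chd4fl/fl. Its groups came close, at 5.90 and 6.34 RPKM, without meeting, and the log2 fold change was -0.58 (SE 0.15, adjusted p = 0.0186). Without Chd4fl/fl replicate 2 or replicate 4 the Ezh1 call was lost, with an adjusted p of at most 0.0554 in any alternative. Jarid2, an accessory subunit that helps bring PRC2 to its targets, had 4.95, 4.32, 5.04 and 3.80 RPKM in Chd4dPax7ER, against 6.58, 6.92, 6.59 and 6.48 RPKM in Chd4fl/fl. The Chd4fl/fl libraries of Jarid2 were almost level with each other and all above Chd4dPax7ER (log2 fold change -0.51, SE 0.11, adjusted p = 0.0107).

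Suz12, a core subunit that PRC2 needs for activity, fell to 31.4 to 42.6 RPKM in Chd4dPax7ER, against 42.8 to 56.0 RPKM in Chd4fl/fl, with a log2 fold change of -0.46 (adjusted p = 0.0186). Chd4dPax7ER replicate 4 and Chd4fl/fl replicate 4 nearly touched, and the call was lost without Chd4fl/fl replicate 2, with an adjusted p of at most 0.0556 in any alternative. Rbbp4, a histone chaperone shared with other complexes including that of Chd4, fell by 0.29 on the log2 scale (adjusted p = 0.0267), a call lost without Chd4dPax7ER replicate 2 or 3 or Chd4fl/fl replicate 1 or 2 (adjusted p at most 0.072). Its close relative Rbbp7 averaged 124 ± 6.88 RPKM in Chd4dPax7ER and 130 ± 9.47 RPKM in Chd4fl/fl (SD, n = 4 each) and was not called. Eed, which binds the methyl mark, was not called either, with 27.3 to 41.3 RPKM in Chd4dPax7ER and 32.7 to 45.8 RPKM in Chd4fl/fl.

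In the cultures Ezh2 was the only PRC2 gene called, and only with the block, which called 36.2% of all genes. Ezh2 had 8.89, 12.8, 14.4 and 15.9 RPKM in AdCRE replicates 1 to 4, against 17.0, 20.4, 21.8 and 27.8 RPKM in AdGFP replicates 1 to 4. Within the same-numbered pairs AdCRE held 52.4 to 66.1% of AdGFP, and the groups did not overlap. The log2 fold change was -0.73, with an adjusted p of 0.151 without the block (SE 0.20) and 0.00042 with it (SE 0.06). The other 6 PRC2 genes lay between 91.0 and 106% of AdGFP on average, Ezh1 at the upper end. Ezh1 averaged 3.57 ± 0.331 RPKM in AdCRE and 3.37 ± 0.329 RPKM in AdGFP (SD, n = 4 each), and was higher in 3 of 4 pairs.

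**Figure D2:**
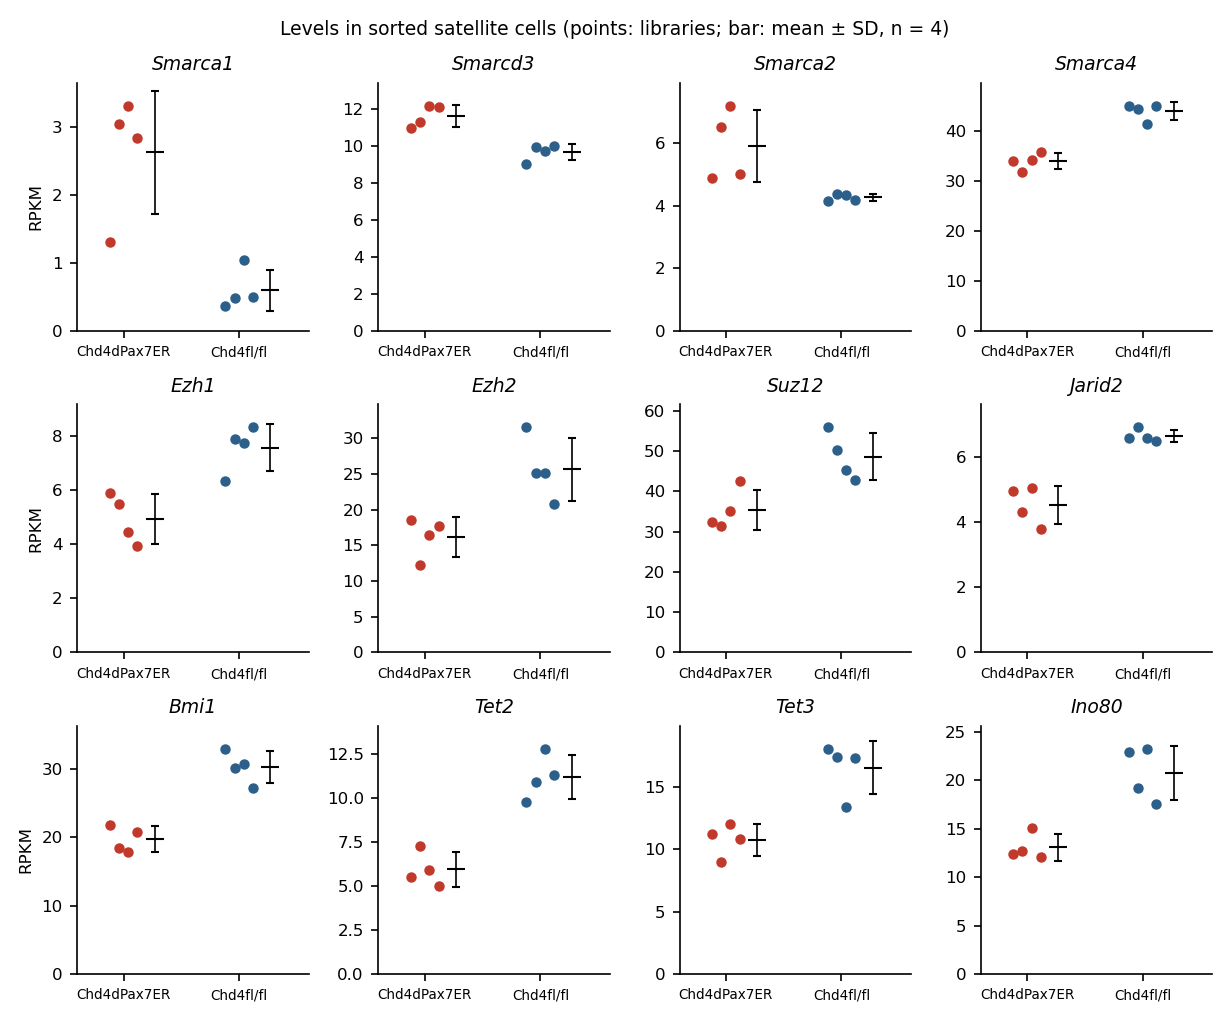
RPKM in the sorted cells for 12 chromatin genes, with Chd4dPax7ER libraries on the left of each panel and Chd4fl/fl libraries on the right (points, libraries; bars, mean ± SD, n = 4). Smarca1 reaches 3.31 RPKM in Chd4dPax7ER against at most 1.04 RPKM in Chd4fl/fl, Smarcd3 and Smarca2 (which was not called) also lie higher, and the 9 other genes lie lower without overlap.

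Among the 7 PRC1 genes, Bmi1 was the only call in either setting, in the cultures with the block. Such a call was 14.3% of the 7, against 26.6% of all genes in the sorted cells and 36.2% with the block in the cultures. Bmi1, a Polycomb ring finger protein known for keeping the Cdkn2a locus silent in stem cells, had 21.8, 18.4, 17.9 and 20.8 RPKM in Chd4dPax7ER, against 33.0, 30.2, 30.8 and 27.2 RPKM in Chd4fl/fl. The groups did not overlap, the highest Chd4dPax7ER library being at 21.8 RPKM and the lowest Chd4fl/fl library at 27.2 RPKM. Its log2 fold change was -0.61 (SE 0.09, adjusted p = 0.00174), and Chd4dPax7ER held 65.1% of Chd4fl/fl. In the cultures Bmi1 had 20.3, 20.7, 19 and 23.9 RPKM in AdCRE, against 23.8, 23.7, 22.7 and 29.3 RPKM in AdGFP. AdCRE was lower in each pair, at 81.7 to 87.3% of AdGFP, although AdCRE replicate 4 overlapped AdGFP (log2 fold change -0.24, adjusted p = 0.319 without and 0.00369 with the block).

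The catalytic PRC1 genes were level in the sorted cells. Rnf2, the ubiquitin ligase paired with Bmi1, averaged 26.7 ± 1.24 RPKM in Chd4dPax7ER and 26.7 ± 0.823 RPKM in Chd4fl/fl (SD, n = 4 each). Ring1, its paralogue, was low and scattered, at 1.69 to 2.62 RPKM in Chd4dPax7ER and 1.80 to 3.44 RPKM in Chd4fl/fl. The chromobox genes Cbx2, Cbx6, Cbx7 and Cbx8, whose products read the methyl mark, were not called in either setting. Cbx2 lay at 3.46 to 5.87 RPKM in Chd4dPax7ER and 5.89 to 7.60 RPKM in Chd4fl/fl, without overlap, at an adjusted p of 0.0988. Cbx7 had log2 fold change -0.66 in vivo at an adjusted p of 0.0667, where 1 Chd4fl/fl library at 8.37 RPKM widened the spread. Cbx8 was near the filter, under 1 RPKM in all 8 sorted-cell libraries.

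Of the DNA methylation genes, 6 were tested in the sorted cells, all with negative fold changes, and 2 of them, the oxidising enzymes Tet2 and Tet3, fell. Those 2 are 33.3% of the 6, against 11.9% of all genes tested falling. Dnmt3b, among the 6, passed the filter through its Chd4fl/fl libraries, where it was higher, so its sign adds no support. Tet2 had 5.53, 7.29, 5.92 and 5.01 RPKM in Chd4dPax7ER, against 9.77, 10.9, 12.8 and 11.3 RPKM in Chd4fl/fl. The groups stood well apart, and Tet2 had the widest fall of the chromatin genes tested in vivo (log2 fold change -0.87, SE 0.13, adjusted p = 0.00183). Chd4dPax7ER cells averaged 53.0% of the Chd4fl/fl level. Tet3 had 11.2, 8.96, 12 and 10.8 RPKM in Chd4dPax7ER, against 18.1, 17.4, 13.4 and 17.3 RPKM in Chd4fl/fl. The groups did not overlap even though Chd4fl/fl replicate 3 sat low (log2 fold change -0.60, SE 0.12, adjusted p = 0.00762). Tet1 was below the filter in vivo, with 0.13 to 0.30 RPKM in Chd4dPax7ER and 0.37 to 0.69 RPKM in Chd4fl/fl.

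The cultures did not show these falls. Tet2 had 1.56, 0.970, 0.997 and 1.54 RPKM in AdCRE, against 1.57, 1.11, 0.817 and 1.33 RPKM in AdGFP, and the groups overlapped throughout. Tet3 averaged 4.35 ± 0.571 RPKM in AdCRE and 4.63 ± 0.507 RPKM in AdGFP (SD, n = 4 each). Neither was called, with or without the block.

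Dnmt1, which copies methylation to new DNA strands, and Uhrf1, which guides it there, fell in the cultures with the block. Dnmt1 had 15.1, 23.0, 25.6 and 32.7 RPKM in AdCRE replicates 1 to 4, against 28.5, 32.8, 39.2 and 52.5 RPKM in AdGFP replicates 1 to 4. Levels differed as much between replicate numbers as between viruses, yet AdCRE was at 53.0 to 70.1% of AdGFP in each pair. The log2 fold change was -0.67, with an adjusted p of 0.265 without the block (SE 0.26) and 0.000669 with it (SE 0.06). Uhrf1 had 8.04, 14.9, 18.7 and 24.7 RPKM in AdCRE, against 16.7, 21.7, 30.0 and 42.0 RPKM in AdGFP. AdCRE was again lower in every pair, at 48.2 to 68.8% of AdGFP (log2 fold change -0.74, adjusted p = 0.392 without and 0.000772 with the block). In vivo, Dnmt1 had 31.7, 18.8, 30.9 and 34.1 RPKM in Chd4dPax7ER, against 47.2, 39.7, 34.5 and 36.6 RPKM in Chd4fl/fl. Its groups missed each other narrowly, and it was not called (log2 fold change -0.47, SE 0.18, adjusted p = 0.0842). Uhrf1 had 21.6, 11, 17.6 and 23.8 RPKM in Chd4dPax7ER, against 35.7, 30.7, 22.8 and 27 RPKM in Chd4fl/fl, with 1 Chd4dPax7ER library reaching into the Chd4fl/fl range. Uhrf1 had log2 fold change -0.67 (SE 0.23, adjusted p = 0.0565), and it was called with TPM scaling, with quantile normalization and without Chd4dPax7ER replicate 4.

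The de novo methyltransferases were low in both settings. Dnmt3a averaged 3.86 ± 0.334 RPKM in Chd4dPax7ER and 4.02 ± 0.520 RPKM in Chd4fl/fl, and 2.05 ± 0.321 RPKM in AdCRE and 1.73 ± 0.293 RPKM in AdGFP (SD, n = 4 each). It was not called in either. Dnmt3b lay at 0.20 to 0.76 RPKM in Chd4dPax7ER and 0.75 to 1.36 RPKM in Chd4fl/fl, at an adjusted p of 0.0816. In the cultures Dnmt3b was below the filter, at 0.165 to 0.276 RPKM in AdCRE and 0.235 to 0.485 RPKM in AdGFP.

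**Figure D3:**
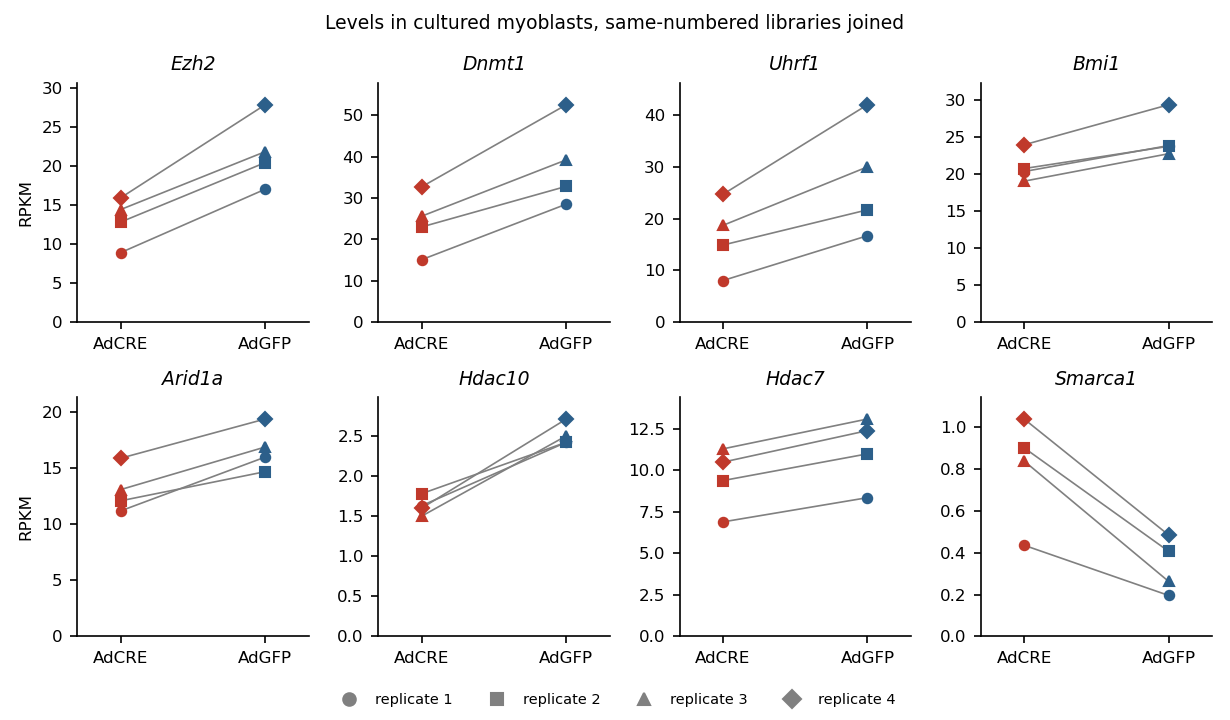
RPKM in the cultures for 8 chromatin genes, AdCRE on the left of each panel and AdGFP on the right, with a line joining libraries of the same replicate number. The lines of Ezh2, Dnmt1, Uhrf1, Bmi1, Arid1a, Hdac10 and Hdac7 all run upward to AdGFP in 4 of 4 pairs, and those of Smarca1 all run downward.

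Ezh2, Dnmt1 and Uhrf1 moved with proliferation genes across libraries. The summed level of 24 proliferation markers, such as Mki67 and Pcna, was 315, 504, 561 and 694 RPKM in AdCRE replicates 1 to 4, against 619, 759, 896 and 1138 RPKM in AdGFP replicates 1 to 4. None of the 24 was called in the cultures without the block, with 16 at an unadjusted p under 0.05, and all 24 fell with it. Over all genes tested in the cultures, 15.6% were at an unadjusted p under 0.05 and 18.7% fell with the block. In the sorted cells the sum was 721, 415, 681 and 781 RPKM in Chd4dPax7ER, against 1079, 912, 799 and 801 RPKM in Chd4fl/fl. There 6 of the 24 fell, or 25%, against 11.9% of all genes tested. The library with the lowest sum, Chd4dPax7ER replicate 2, also held the lowest Ezh2, Dnmt1 and Uhrf1. Set per 100 RPKM of that sum, a ratio chosen after the values were seen, Dnmt1 was 4.56 to 4.8 RPKM in AdCRE against 4.31 to 4.61 RPKM in AdGFP, and 4.36 to 4.54 RPKM in Chd4dPax7ER against 4.32 to 4.57 RPKM in Chd4fl/fl. Ezh2 per 100 RPKM of the sum was 2.29 to 2.82 RPKM in AdCRE against 2.43 to 2.74 RPKM in AdGFP, and 2.26 to 2.93 RPKM in Chd4dPax7ER against 2.60 to 3.14 RPKM in Chd4fl/fl. Uhrf1 per 100 RPKM of the sum was 2.55 to 3.57 RPKM in AdCRE against 2.70 to 3.69 RPKM in AdGFP, and 2.59 to 3.05 RPKM in Chd4dPax7ER against 2.85 to 3.37 RPKM in Chd4fl/fl. On this ratio the groups overlapped for all 3 genes in both settings. They also overlapped for Tet2 in both settings, so overlap on this ratio does not set the 3 genes apart from Tet2. In RPKM, Tet2 did not follow the order of the sum in the sorted cells. There Chd4dPax7ER replicate 2, lowest in the sum, had the highest Tet2 of its group. The part of proliferation in these results was not tested.

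**Figure D4:**
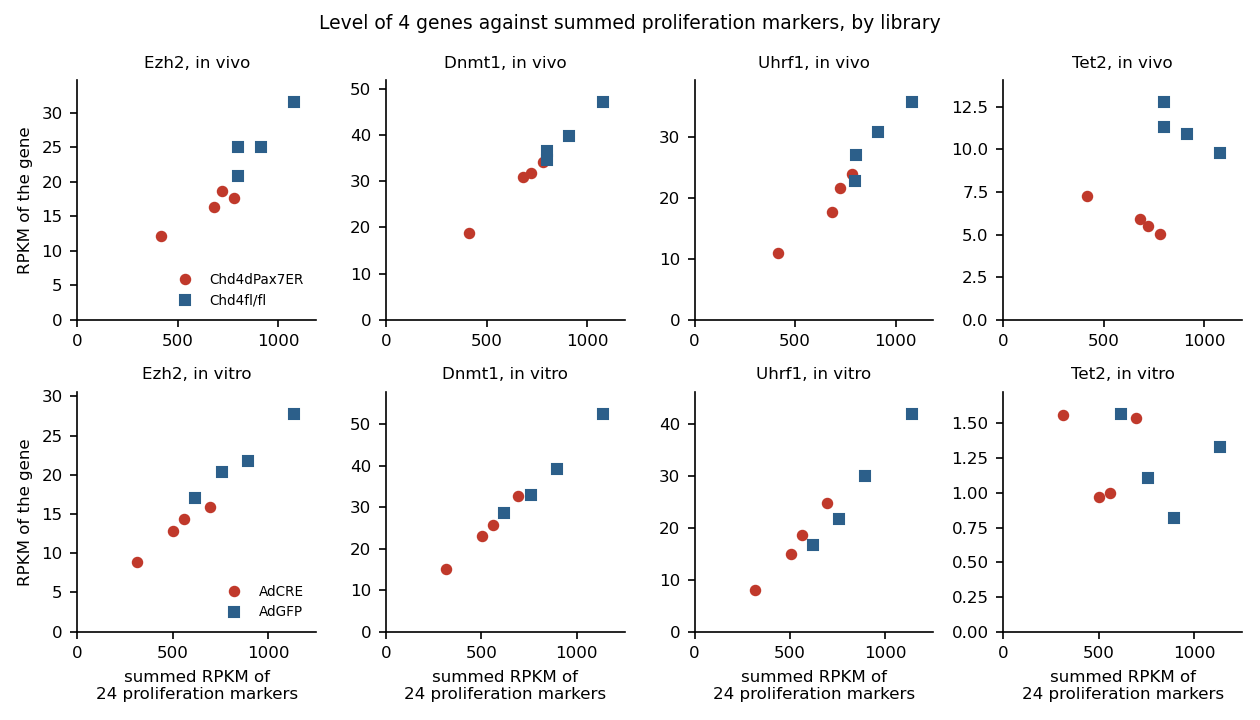
RPKM of Ezh2, Dnmt1, Uhrf1 and Tet2 (vertical) against the summed RPKM of 24 proliferation markers (horizontal) by library, for sorted cells (top; red, Chd4dPax7ER; blue, Chd4fl/fl) and cultures (bottom; red, AdCRE; blue, AdGFP). Dnmt1, Ezh2 and Uhrf1 rise with the sum across the libraries of both groups. In the sorted cells Tet2 lies at 5.01 to 7.29 RPKM in Chd4dPax7ER against 9.77 to 12.8 RPKM in Chd4fl/fl, without overlap. The groups there also do not overlap for Ezh2 and Dnmt1.

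Promoters of the 49 genes were also searched for words of the type bound by E2F factors, which are known to drive genes of DNA synthesis. RefSeq promoters (GRCm38.p6, 250 bases before to 50 after each start) were matched for 45 of the 49 genes, and the words TTTGGCGC, TTTCCCGC, TTTGCCGC and TTTCGCGC were sought on both strands. At least 1 word was present in 6 of the 45 genes (13.3%), against 704 of all 27025 genes with a RefSeq promoter (2.6%). The 6 were Ezh2, Dnmt1, Uhrf1, Suz12, Arid1a and Smarcd1. Smarcd1 was not called in either setting, averaging 10.5 ± 1.96 RPKM in Chd4dPax7ER and 10.4 ± 0.642 RPKM in Chd4fl/fl (SD, n = 4 each). Of the other 5, Ezh2, Suz12 and Arid1a were called in sorted cells, as were 42.6% of the chromatin genes tested. Ezh2, Dnmt1, Uhrf1 and Arid1a were called with the block in cultures, as were 23.4%. Each share is for its setting alone, and the share called in either setting was not computed. Over all genes tested those shares were 26.6% and 36.2%. The windows below show the word in capitals for these 5, each read 5′ to 3′ on the strand of its gene. They come from chr6:47595009-47595038 (Ezh2, minus strand, straddling the start), chr9:20952799-20952873 (Dnmt1, minus strand, where the capitals are the reverse complement of TTTCGCGC), chr17:56304092-56304171 (Uhrf1, plus strand), chr11:79992856-79992930 (Suz12, plus strand) and chr4:133753997-133754076 (Arid1a, minus strand). All of these windows but that of Ezh2 lie before a RefSeq start. Dnmt1 also held TTTGGCGC on its own strand, beginning at base 33 after that start, which is not shown. A match describes the letters alone and does not show that a factor binds. The 27025 genes were not matched to the 45 in expression or base composition, and the part of E2F factors was not tested.
Ezh2: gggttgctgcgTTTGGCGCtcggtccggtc
Dnmt1: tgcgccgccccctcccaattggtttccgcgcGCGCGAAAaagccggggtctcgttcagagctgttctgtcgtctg
Uhrf1: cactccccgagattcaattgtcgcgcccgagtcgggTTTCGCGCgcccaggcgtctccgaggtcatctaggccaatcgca
Suz12: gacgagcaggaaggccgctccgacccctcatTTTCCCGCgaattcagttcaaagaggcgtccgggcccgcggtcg
Arid1a: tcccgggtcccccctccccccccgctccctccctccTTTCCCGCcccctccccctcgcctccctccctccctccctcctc

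The ISWI ATPases went opposite ways in the sorted cells. Smarca1, also called Snf2l, had 1.3, 3.04, 3.31 and 2.84 RPKM in Chd4dPax7ER, against 0.36, 0.49, 1.04 and 0.50 RPKM in Chd4fl/fl. All Chd4dPax7ER libraries were higher, the lowest at 1.3 RPKM against the highest Chd4fl/fl library at 1.04 RPKM. Smarca1 averaged 2.62 ± 0.902 RPKM in Chd4dPax7ER and 0.598 ± 0.302 RPKM in Chd4fl/fl (SD, n = 4 each), with a log2 fold change of 1.49 (SE 0.29, adjusted p = 0.00559). Its level stayed low in absolute terms, near the filter in Chd4fl/fl, and it passed the filter through the Chd4dPax7ER libraries, where it was higher. Smarca5, also called Snf2h and the more abundant of the pair, was at 30.0 to 34.7 RPKM in Chd4dPax7ER, against 37.0 to 43.4 RPKM in Chd4fl/fl. Smarca5 fell by 0.29 on the log2 scale (adjusted p = 0.0192), and the call was lost without Chd4fl/fl replicate 1 (adjusted p = 0.0522).

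In the cultures the ISWI genes also had opposite signs. Smarca1 was below the filter there, with 0.436, 0.902, 0.839 and 1.04 RPKM in AdCRE, against 0.196, 0.407, 0.263 and 0.485 RPKM in AdGFP. AdCRE was at 214 to 319% of AdGFP within the pairs, higher in 4 of 4. Without the filter, limma gave a log2 fold change of 0.63 at an adjusted p of 0.276, and 0.0206 with the block added, a fit chosen after the values were seen. Smarca5 had 16.8, 18.4, 17.9 and 18.4 RPKM in AdCRE, against 18.9, 19.8, 19.4 and 22.1 RPKM in AdGFP. The groups did not overlap, with a log2 fold change of -0.16 and an adjusted p of 0.328 without and 0.0272 with the block.

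The Smarca1 promoter is shown for comparison, as that of the gene with the widest rise in the sorted cells. The 250 bases before its RefSeq start, at chrX:47892614-47892863 on the minus strand, held none of the E2F-type words. They held 1 CCAAT word, read here as ATTGG on the gene's strand and in capitals. CCAAT was present on either strand in 21 of the 45 chromatin genes (46.7%) and in 41.1% of all genes with a RefSeq promoter.
Smarca1: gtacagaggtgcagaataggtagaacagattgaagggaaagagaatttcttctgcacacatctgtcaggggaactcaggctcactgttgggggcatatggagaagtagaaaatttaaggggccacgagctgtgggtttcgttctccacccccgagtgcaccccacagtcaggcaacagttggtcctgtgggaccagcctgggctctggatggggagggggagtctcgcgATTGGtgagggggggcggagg

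SWI/SNF subunits fell by small and similar amounts in the sorted cells, with 6 of 12 lower and 1 higher. Over all genes tested there, 11.9% fell and 14.7% rose. Smarca4 (Brg1), the main ATPase, was at 31.9 to 35.9 RPKM in Chd4dPax7ER, against 41.4 to 45.1 RPKM in Chd4fl/fl, and fell by 0.37 on the log2 scale (SE 0.06, adjusted p = 0.00332). The core subunits Smarcb1, Smarcc1 and Smarcc2 had log2 fold changes of -0.32, -0.34 and -0.32, and each averaged 78.6 to 79.6% of Chd4fl/fl. Arid1a, which defines the BAF form of the complex, fell by 0.36 and Pbrm1, which defines the PBAF form, by 0.30 on the log2 scale. The Arid1a call was lost without Chd4dPax7ER or Chd4fl/fl replicate 1, 2 or 4 (adjusted p at most 0.0745), the Smarcb1 call without Chd4fl/fl replicate 1, 2 or 4 (at most 0.0603) and the Pbrm1 call without Chd4fl/fl replicate 1 (at most 0.0527). The groups did not overlap for 10 of the 12 subunits, or 83.3%, against 30.3% of all genes tested. Smarcd3 (Baf60c), the subunit known for muscle and heart genes, was the exception that rose, at 11 to 12.2 RPKM in Chd4dPax7ER, against 9.03 to 10.0 RPKM in Chd4fl/fl. Its rise was 0.26 on the log2 scale at an adjusted p of 0.0437, and leaving out any library lost the call, with an adjusted p of at most 0.105. Smarca2 (Brm), the alternative ATPase, was at 4.88 to 7.20 RPKM in Chd4dPax7ER, against 4.16 to 4.37 RPKM in Chd4fl/fl, without overlap, and was not called (log2 fold change 0.41, adjusted p = 0.0574). The paralogues Smarcd1 and Smarcd2 were level, averaging 101 and 98.2% of Chd4fl/fl. The myofibre marker sums given above were also higher in Chd4dPax7ER, and their part in the values of Smarca1, Smarcd3 and Smarca2 was not tested.

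In the cultures 4 of the 12 SWI/SNF genes, or 33.3%, were called with the block, and all 4 fell: Smarca4, Arid1a, Arid1b and Arid2. Over all genes tested the block called 36.2%, with 18.7% falling. Smarca4 was at 44.0 to 60.1 RPKM in AdCRE, against 55.1 to 71.1 RPKM in AdGFP, with 77.0 to 85.1% of AdGFP within pairs. Arid1a was at 69.6 to 82.5% of AdGFP within pairs, with a log2 fold change of -0.35 (adjusted p = 0.24 without and 0.00283 with the block). The core subunits Smarcc1 and Smarcc2 averaged 96.9 and 93.0% of AdGFP and were not called. Smarcd3 averaged 10.2 ± 0.668 RPKM in AdCRE and 9.82 ± 0.668 RPKM in AdGFP (SD, n = 4 each).

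In the sorted cells 8 of 9 histone deacetylases were tested, and Hdac3, the catalytic subunit of the NCoR and SMRT corepressors, was the only call. That was 12.5% of the 8, against 26.6% of all genes tested. With the block 2 of 9 were called in the cultures (22.2%), against 36.2% of all genes tested. Hdac3 was at 18 to 24 RPKM in Chd4dPax7ER, against 26.7 to 28.2 RPKM in Chd4fl/fl, and fell by 0.32 on the log2 scale (adjusted p = 0.0359). The call was lost without Chd4dPax7ER replicate 3 and without each Chd4fl/fl library in turn, with an adjusted p of at most 0.0821. The class IIa genes Hdac4, Hdac5 and Hdac7, which shuttle out of the nucleus and bind MEF2, averaged 103 to 114% of Chd4fl/fl in Chd4dPax7ER and were not called. Hdac9, the fourth of that class, was below the filter in vivo, at 0 to 0.61 RPKM in Chd4dPax7ER and 0.34 to 0.63 RPKM in Chd4fl/fl. Hdac6, a cytoplasmic tubulin deacetylase, averaged 10.2 RPKM in both groups. Hdac8, Hdac10 and Hdac11 were all under 5 RPKM, had wide spreads and were not called.

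In the cultures Hdac10, a class IIb enzyme known to deacetylate polyamines, stood out. Hdac10 had 1.63, 1.78, 1.5 and 1.6 RPKM in AdCRE, against 2.42, 2.42, 2.50 and 2.71 RPKM in AdGFP. Both groups were tight and well separated, and AdCRE averaged 64.8% of AdGFP. The log2 fold change was -0.50, with an adjusted p of 0.0623 without the block (SE 0.09) and 0.00288 with it (SE 0.07). Hdac10 was the gene called lower in the cultures when the variance trend was left out of limma. In the sorted cells Hdac10 had 1.86, 0.84, 2.01 and 1.62 RPKM in Chd4dPax7ER, against 2.76, 1.64, 1.88 and 2.43 RPKM in Chd4fl/fl, and the groups overlapped. Hdac7 was at 82.5 to 86.0% of AdGFP within pairs in the cultures, with an adjusted p of 0.598 without and 0.00572 with the block. The 7 other deacetylases in the cultures were not called and averaged 90.8 to 121% of AdGFP, with Hdac11 highest.

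Of the corepressor genes and Ino80, Ino80 and Kdm1a fell in the sorted cells, or 2 of 5, against 11.9% of all genes tested. Ino80, the ATPase of the complex that exchanges histone variants, had 12.4, 12.7, 15.1 and 12.1 RPKM in Chd4dPax7ER, against 22.9, 19.2, 23.3 and 17.6 RPKM in Chd4fl/fl. No library overlapped, and Chd4dPax7ER averaged 63.0% of Chd4fl/fl (log2 fold change -0.64, SE 0.11, adjusted p = 0.00385). In the cultures Ino80 had 7.84, 8.17, 8.70 and 8.38 RPKM in AdCRE, against 8.86, 9.25, 8.86 and 9.44 RPKM in AdGFP. These groups also did not overlap, but the difference was small, with AdCRE at 90.9% of AdGFP, and it was not called with or without the block (adjusted p = 0.392 and 0.0715). Kdm1a (LSD1), a histone demethylase, was at 38.7 to 43.6 RPKM in Chd4dPax7ER, against 44.7 to 54.3 RPKM in Chd4fl/fl, and fell by 0.33 on the log2 scale (adjusted p = 0.0142). Its scaffold Rcor1 was at 22.6 to 26.4 RPKM in Chd4dPax7ER, against 26.8 to 29.8 RPKM in Chd4fl/fl, without a call (adjusted p = 0.0758). Sin3a and Sin3b, the scaffolds of another deacetylase complex, averaged 89.5 and 98.8% of Chd4fl/fl and were not called. None of these 5 genes was called in the cultures.

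Differences between the settings were tested directly, as the in vivo log2 fold change minus the in vitro one in a limma fit of all 16 libraries. Of 45 chromatin genes tested in both tables, 2 differed, against 4.12% of the 11941 genes. Tet2 had a difference of -0.92 (SE 0.23, adjusted p = 0.0409), with a log2 fold change of -0.87 in vivo and 0.05 in vitro. Ino80 had a difference of -0.51 (SE 0.13, adjusted p = 0.045), with -0.64 in vivo and -0.13 in vitro. Both calls were close to the threshold: Tet2 lost it in 13 alternatives, with an adjusted p of up to 0.0825, and Ino80 in 15, with up to 0.0924. With the replicate block 5 genes differed, against 10.8% of all genes tested, adding Ezh1, Bmi1 and Kdm1a. Ezh1 had a difference of -0.65 (adjusted p = 0.0549 without and 0.0363 with the block). For Ezh2, Dnmt1 and Uhrf1 the difference was 0.08, 0.20 and 0.07, well within its SE of 0.27, 0.33 and 0.47. Smarca1 was not tested here because it was below the filter in the cultures.

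Ratios of related genes within a library were compared for 10 pairs in each setting, so 20 tests were made with an exact two-sided permutation test over the 70 arrangements. None passed after Benjamini-Hochberg adjustment, where the lowest adjusted p was 0.0952. Of the 20 ratios, 6 did not overlap between groups and had the smallest exact p possible, 0.0286. Smarca1 over Smarca5 had a log2 ratio of -4.65, -3.30, -3.39 and -3.55 in Chd4dPax7ER, against -6.91, -6.32, -5.27 and -6.21 in Chd4fl/fl, a difference of 2.46. In the cultures it was -5.27, -4.35, -4.42 and -4.15 in AdCRE, against -6.59, -5.60, -6.20 and -5.51 in AdGFP, a difference of 1.43. In both settings the ratio was higher in every library that had lost Chd4. It rests on low values of Smarca1, which was below the filter in the cultures, at 0.196 to 1.04 RPKM. In the sorted cells Smarca1 passed the filter through the Chd4dPax7ER libraries, where it was higher, so this ratio adds no separate support. Smarca2 over Smarca4 was -2.80, -2.29, -2.25 and -2.84 in Chd4dPax7ER, against -3.44, -3.35, -3.25 and -3.43 in Chd4fl/fl, a difference of 0.82. In the cultures that ratio differed by 0.29 and its groups overlapped. Dnmt3a over Dnmt1 was higher by 0.43 in Chd4dPax7ER than in Chd4fl/fl and by 0.92 in AdCRE than in AdGFP, without overlap in either. Cbx7 over Cbx2 was higher by 0.46 in AdCRE than in AdGFP, without overlap, and the difference was -0.29 between Chd4dPax7ER and Chd4fl/fl, with overlap. Ezh1 over Ezh2 differed by 0.84 in the cultures, higher in AdCRE in 4 of 4 pairs (exact p = 0.0571), and by 0.04 in the sorted cells (exact p = 0.914), where both genes had fallen. Within the 4 culture pairs the smallest possible exact p is 0.125, so that test could not reach 0.05.

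**Figure D5:**
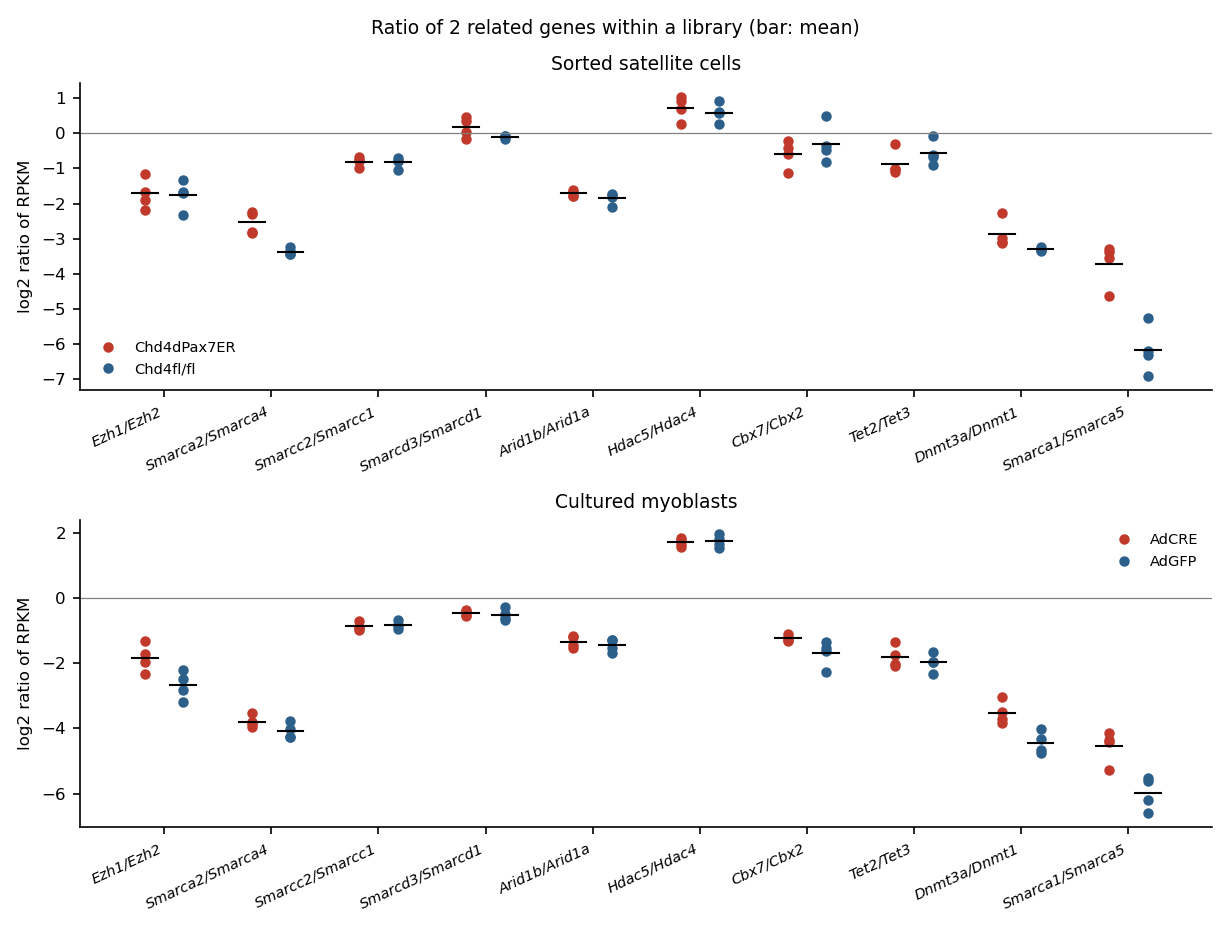
Log2 ratio of RPKM of 2 related genes within each library (points) and the mean (bars) for 10 pairs, in sorted cells (top; red, Chd4dPax7ER; blue, Chd4fl/fl) and cultures (bottom; red, AdCRE; blue, AdGFP). Groups do not overlap for Smarca1/Smarca5 and Dnmt3a/Dnmt1 in both settings, for Smarca2/Smarca4 in the sorted cells and for Cbx7/Cbx2 in the cultures.

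Other genes of the same pathways were called in both directions in the sorted cells. Their counts stand against 26.6% of all genes called there, and the shares called were 37.5% of the further Polycomb genes, 33.3% for DNA methylation, 42.9% for SWI/SNF, 26.9% for ISWI, INO80 and SRCAP, 32.1% for corepressors and 23.5% for class IIa partners. Of 24 further Polycomb genes, 6 fell and 3 rose. The 3 widest changes were those of Phf19 and Phf1, Polycomb-like proteins that recruit PRC2, and Pcgf1, a ring finger partner of PRC1. Phf19 averaged 10.4 ± 1.5 RPKM in Chd4dPax7ER and 5.26 ± 1.54 RPKM in Chd4fl/fl (SD, n = 4 each; log2 fold change 0.95, adjusted p = 0.0111), and Phf1 rose by 0.70. Pcgf1 averaged 1.87 ± 0.578 RPKM in Chd4dPax7ER and 3.19 ± 0.517 RPKM in Chd4fl/fl and fell by 0.67 on the log2 scale. Phf19 and Phf1 thus had the sign opposite to that of Ezh2, Suz12 and Jarid2. Other genes of that list did not: 17 of the 24 had negative fold changes. Among them, Aebp2 fell by 0.30 on the log2 scale (limma adjusted p = 0.00971). Mtf2 had a log2 fold change of -0.30 and was not called (adjusted p = 0.0683). Of 15 further DNA methylation genes tested, 4 fell and 1 rose. Zbtb4, a reader of methylated DNA, rose by 1.51 to 4.17 ± 0.437 RPKM in Chd4dPax7ER, against 1.14 ± 0.199 RPKM in Chd4fl/fl (adjusted p = 0.000262). Ogt, a sugar transferase that binds TET proteins, averaged 26.2 ± 3.37 RPKM in Chd4dPax7ER and 46.2 ± 5.61 RPKM in Chd4fl/fl and fell by 0.80, and Uhrf2, the paralogue of Uhrf1, fell by 0.61 on the log2 scale.

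Of 14 further SWI/SNF genes tested in vivo, 4 fell and 2 rose. Dpf1, a subunit known from neurons, averaged 2.26 ± 0.535 RPKM in Chd4dPax7ER and 0.928 ± 0.204 RPKM in Chd4fl/fl (log2 fold change 0.94, adjusted p = 0.00725), while Bcl7a fell by 0.76 and Brd9 by 0.61 on the log2 scale. Of 26 further ISWI, INO80 and SRCAP genes, 6 fell and 1 rose. Baz1b, a partner of Smarca5, fell by 0.53, Pole3 by 0.40 and the INO80-associated gene Uchl5 by 0.39 on the log2 scale. Of 28 further deacetylase corepressor genes, 5 rose and 4 fell, and Rcor2, a paralogue of Rcor1, rose to 10.9 ± 2.32 RPKM in Chd4dPax7ER, against 4.40 ± 0.639 RPKM in Chd4fl/fl (log2 fold change 1.21, adjusted p = 0.00106). Rcor3, a further paralogue, fell by 0.61 and Sap30l by 0.56 on the log2 scale. Of 17 partners of class IIa deacetylases tested, 2 rose and 2 fell, Mef2d by 0.30 upward and the kinase gene Prkd3 by 0.41 downward among them. In the cultures none of these genes was called without the block. With it, 2 Polycomb genes rose and 4 fell of 23, 2 DNA methylation genes rose and 6 fell of 15, 2 SWI/SNF genes rose and 5 fell of 15, 1 ISWI, INO80 or SRCAP gene rose and 6 fell of 25, 3 corepressor genes rose and 3 fell of 28, and 4 deacetylase partners rose and 2 fell of 17. Over all genes the block called 36.2%, and it called 26.1% of the Polycomb, 53.3% of the DNA methylation, 46.7% of the SWI/SNF, 28% of the ISWI, INO80 and SRCAP, 21.4% of the corepressor and 35.3% of the partner genes tested.

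Genes that PRC2 and DNA methylation are known to keep silent were mostly below the filter. Of 35 textbook Polycomb targets, 13 were listed at 0 in all sorted-cell libraries and 7 were tested, of which Tbx15 rose and Hoxa9 fell. Tbx15 averaged 25.2 ± 4.38 RPKM in Chd4dPax7ER and 13.9 ± 2.35 RPKM in Chd4fl/fl (log2 fold change 0.83, adjusted p = 0.00466). Hoxa9 averaged 3.48 ± 0.430 RPKM in Chd4dPax7ER and 6.17 ± 1.20 RPKM in Chd4fl/fl (log2 fold change -0.73, adjusted p = 0.00861). In the cultures 11 were tested and none was called without the block, with 2 at an unadjusted p under 0.05. With the block 6 of the 11 rose, against 17.5% of all genes rising and 36.2% called. Cdkn1c, an inhibitor of the cell cycle, was the widest of the 6, at 2.70 ± 0.585 RPKM in AdCRE and 1.23 ± 0.527 RPKM in AdGFP (log2 fold change 0.93, adjusted p = 0.149 without and 0.00625 with the block). Of 20 germline genes known to be silenced by promoter methylation, 1 was tested in the sorted cells and 2 in the cultures, and none was called or at an unadjusted p under 0.05 in either.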

How the data were processed

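RNA-seq of 16 libraries was used, and the 8 ATAC-seq samples of the series were not analysed here. The authors deposited 1 table of RPKM values (reads scaled by gene length and by library reads) per setting, the in vivo values rounded to 2 decimals. The submitters' processing notes list builds GRCm38 and mm10 and, as tools, HISAT2 2.1.0, cutadapt 1.18, DESeq2 3.6, FastQC 0.11.8, Picard 2.18.15, HOMER and MACS2 2.1.2. The sources used here give no counter, gene lengths, strand or reads per library, so depth is unknown and no counting interval is given. RPKM is relative within a library, so a rise of other transcripts lowers it.

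Here log2(RPKM + 0.5) was fitted with limma 3.58.1 in R 4.3.3 (lmFit and eBayes with trend; statmod 1.5.0) in each table over all genes with at least 0.5 RPKM in at least 4 of 8 libraries, with Benjamini-Hochberg adjustment. The fold changes understate changes of low genes. The difference between settings was an interaction term over 16 libraries; levels were not compared across tables. The fits were tested on simulated data. Ratios and Chd4 were tested with exact permutation tests (Python 3.11.15, numpy 2.4.6, pandas 2.3.3; figures, matplotlib 3.10.9).

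Replicate numbers come from the labels. Deviations from group means correlated between same-numbered libraries at 0.711 to 0.856 in vitro, so the numbers pair those samples, and at -0.0967 to 0.0499 in vivo, where they do not.

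Every library's value is printed for genes called with an absolute log2 change of at least 0.5, in either setting, with the block in vitro, or between settings; other genes were chosen for contrast after their values were seen. Of other gene lists, at most 3 genes with the largest called change are named, besides Aebp2 and Mtf2, named for contrast. The genes, lists and tests were chosen with earlier results of these data known. Alternatives were pseudocounts of 0.1 and 1, no filter, TPM scaling, quantile normalization, no variance trend, the replicate block, combined standard errors for the difference, and leaving out each library.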

Additional observations from a re-analysis of the deposited data

Results flagged for a closer look

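In 13 of 196 groups of 4 libraries, 1 library stood apart from the other 3, its gap to the nearest taking more of the group's range than Dixon's critical value; chance gives about 1 in 20 groups. In the cultures, AdCRE replicate 4 was high for Cbx7 (2.62 RPKM, others 1.38 to 1.57), Tet3 (5.21 RPKM, others 3.99 to 4.12) and Smarcc2 (29.9 RPKM, others 23.3 to 24.1). AdCRE replicate 2 was high for Ring1 (6.58 RPKM, others 5.64 to 5.69). AdGFP replicate 4 was high for Suz12 (32.7 RPKM, others 26.1 to 27.2), Bmi1 (29.3 RPKM, others 22.7 to 23.8) and Pbrm1 (30.6 RPKM, others 27.5 to 27.7). In the sorted cells, Cbx8 was low in Chd4dPax7ER replicate 3 (0.46 RPKM, others 0.73) and high in Chd4fl/fl replicate 3 (0.91 RPKM, others 0.12 to 0.22). Pbrm1 was low in Chd4dPax7ER replicate 1 (23.9 RPKM, others 28.5 to 29.1) and high in Chd4fl/fl replicate 1 (34.6 RPKM, others 33.6 to 33.7). Tet3 was low in Chd4fl/fl replicate 3 (13.4 RPKM, others 17.3 to 18.1), and Rcor1 was high in Chd4fl/fl replicate 1 (29.8 RPKM, others 26.8 to 27.2).

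The change in the sorted cells minus that in the cultures passed the limma interaction test for Tet2 (-0.92) and Ino80 (-0.51). Tet2 was lower in vivo than every Chd4fl/fl library in 4 of 4 Chd4dPax7ER libraries, and its cultures overlapped. Ino80 did not overlap between groups in either setting.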

How the results depend on the processing

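In the sorted cells 18 chromatin genes lower and 2 higher became 11 and 1 with the replicate block, 17 and 1 with no filter, 21 and 1 with TPM scaling, 23 and 2 with quantile normalization, 15 and 1 with no variance trend, and 12 to 18 and 1 to 2 when each library was left out. In the cultures 0 higher and 0 lower held in each such fit, except 1 lower with no variance trend and 11 with the block. Over all genes in the cultures, 70 higher and 19 lower became 2371 and 2536 with the block and 14 to 40 and 2 to 4 when each library was left out, with 12 lower under no filter; the sorted cells gave 1535 to 1754 higher and 1034 to 1436 lower when each library was left out. The difference between settings, 2 genes, gave 5 with the block, 1 with a pseudocount of 0.1, 0 with no filter and 0 to 2 when each library was left out; over all genes 290 above and 202 below became 745 and 549 with the block and 160 to 296 and 88 to 236 without each library. Among the 49 genes, no printed in vivo log2 fold change of a gene that passed the filter changed sign in these fits.

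Signs changed only when a library was left out. The Dnmt1 difference ranged from -0.00 to 0.39. The ratio differences ranged from -0.15 to 0.19 for Ezh1 over Ezh2 in vivo, -0.05 to 0.08 for Smarcc2 over Smarcc1 in vivo and -0.09 to 0.04 for Hdac5 over Hdac4 in vitro. With the block, the in vivo calls of Ezh1, Suz12, Smarcb1, Smarcd3, Arid1a, Pbrm1, Hdac3 and Kdm1a (adjusted p = 0.0509) were lost; there same-numbered libraries did not deviate together and share only a number. With TPM or quantile scaling the median over all genes in vivo was -0.06, against -0.02 without. The cause of these changes was not tested.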
